A study of Homo sapiens with 3 samples.

Results

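The RNAs described here are those of 7 genes for cytoplasmic RNA-binding proteins: SERBP1, the FMRP family (FMR1, FXR1 and FXR2), and the stress-granule and nucleic-acid-binding protein genes G3BP1, CAPRIN1 and CNBP. They were picked by name, and a peak was counted for a gene when the Ensembl gene ID in its deposited name was that of the gene. This gave 165 of the 50800 peaks in the 3 deposited lists, and 6 of the 7 genes held at least 1. The lists come from easyCLIP, an assay that crosslinks proteins to RNA in living cells with ultraviolet light, purifies 1 protein and sequences the trimmed RNA still attached to it. All 3 samples formed 1 group, replicates 1, 2 and 3 of HEK293T cells, a human embryonic kidney line labelled WT in genotype, given 750 ng of an expression vector that makes HNRNPA0 with an HA tag (15 cm plates). The cells were irradiated at 254 nm and RNA was pulled down through the HA tag, so the lists report on tagged protein made from a vector on top of the cells' own HNRNPA0. The replicates were told apart by a barcode in the 3' adapter and pooled after its ligation. No label says whether they were separate cultures, so a spread over them may be technical, and no control library was used here.

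SERBP1 binds ribosomes and messenger RNA and has been described as a partner of RNA G-quadruplexes, folded structures of guanine-rich RNA that the study is about. FMRP, the product of FMR1, represses translation of bound messenger RNAs and has an RGG box that can contact G-quadruplexes. Its loss causes fragile X syndrome, and FXR1 and FXR2 are its paralogs. G3BP1 is the scaffold that starts the assembly of stress granules, the condensates of stalled messenger RNA that form when translation initiation stops, and CAPRIN1 binds G3BP1 and promotes that assembly. CNBP is a zinc-knuckle protein that binds single-stranded guanine-rich nucleic acid and can unfold G-quadruplexes. HNRNPA0 is an hnRNP A/B family protein. The question the lists can answer is where along the RNAs of these genes peaks were called after its pull-down. They also show how often the same place was found again. Without a control library, peaks from HNRNPA0 crosslinking and from background cannot be told apart.

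Each peak has a read number, the whole number that ends its deposited name, which is read here as the reads in the peak. It is 3 or more in every list, so a place with fewer reads is not seen. The lists held 16238, 16060 and 18502 lines, and the read numbers of distinct peaks outside the mitochondrial genome summed to 100038, 99141 and 114203. The 7 genes held 60, 50 and 55 of the peaks in replicates 1, 2 and 3, and 0.664%, 0.567% and 0.516% of that sum. Same-strand peaks of a gene that shared at least 1 bp across replicates were joined into a region. Sums of read numbers over neighbouring peaks may hold the same reads, so they are given as descriptions with the spread over replicates and without a counting interval.

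SERBP1 stood first among the 7 genes in summed and in highest read number in every replicate, and the FMRP family stood last in highest read number. Per kb of gene interval, the summed read number was 13.5, 13.6 and 13.9 for SERBP1 in replicates 1, 2 and 3. It was 3.99, 2.82 and 2.67 for G3BP1, and 3.24, 2.24 and 1.80 for CNBP. The values of SERBP1 lay above those of every other gene in all 3 replicates, whereas the ranges of G3BP1 and CNBP overlapped, although G3BP1 was the higher within each replicate. CAPRIN1 followed with 1.73, 1.40 and 1.53, FMR1 with 1.28, 0.459 and 0.867, and FXR1 with 0.0856, 0.200 and 0.357. The ranges of CNBP and CAPRIN1 did not overlap, but their nearest values, 1.80 and 1.73, were closer than the spread of either gene. FXR2, which spans 23668 bp on chromosome 17 from 7591230 to 7614897, had no peak on either strand in any replicate. The lists hold no RNA level, so more crosslinking per transcript and more transcript, per cell or in more cells, cannot be told apart. Gene intervals include introns, which lengthen the denominator by different amounts for different genes.

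**Figure D1:**
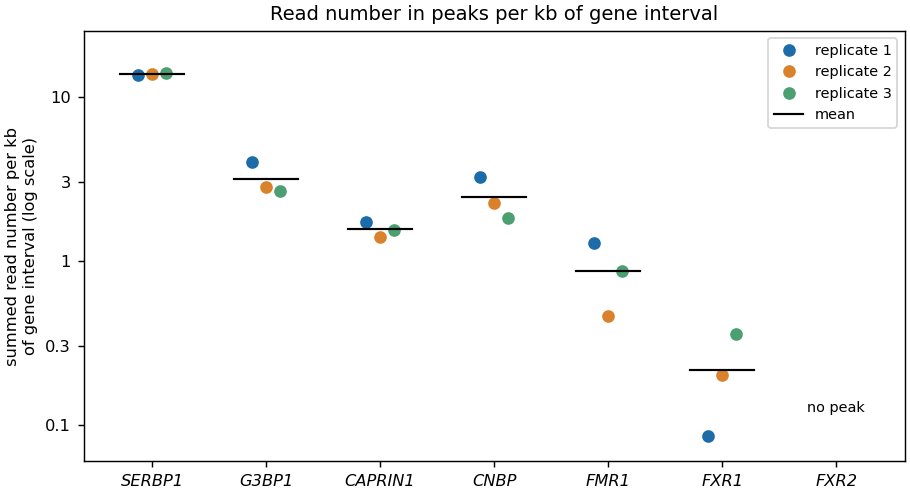
Summed read number in peaks per kb of gene interval (vertical axis, log scale) for each of the 7 genes, with 1 point per replicate and a bar at the mean of 3. SERBP1 sits between 13.5 and 13.9, above all other genes, G3BP1 and CNBP overlap, and FXR2 has no peak.

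Of the 7 genes, 5 held at least 1 region with a peak in all 3 replicates: SERBP1 8, G3BP1 3, CAPRIN1 and CNBP 2 each, and FXR1 1, which makes 16. FMR1 had peaks in each replicate but no such region. Over all 6566 nuclear gene IDs with a peak in any replicate, 21.4% held such a region, and over the 3259 with a peak in each replicate 43.1% did. That share moves with the height of the gene. Among gene IDs with a peak in each replicate, it was 41.5% where the mean summed read number was 10 to below 30, the range of FXR1 with 15. It was 83.2% from 30 to below 100, the range of FMR1 with 34, CNBP with 39 and CAPRIN1 with 79. All gene IDs from 100 to below 300, the range of G3BP1 with 129, and all 16 from 300 up, the range of SERBP1 with 309, held a region. In the range of FMR1, 544 of 654 gene IDs held a region, and FMR1 was among the others. No test was attached to these counts, since the genes were chosen with earlier results of these data known.

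**Figure D2:**
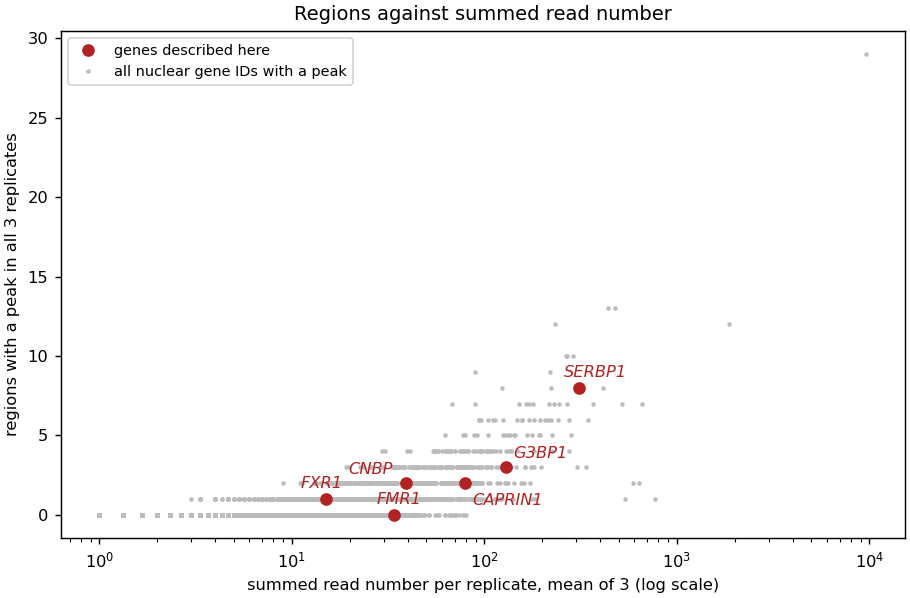
Regions with a peak in all 3 replicates (vertical axis) against the mean summed read number per replicate (horizontal axis, log scale), with 1 red point for each of the 6 genes that held a peak and 1 grey point for each of the 6566 nuclear gene IDs. SERBP1 lies at 309 and 8 regions, and FMR1 at 34 and none.

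SERBP1 lies on chromosome 1 from 67407810 to 67430402 (hg38), spans 22593 bp and is transcribed from the minus strand, on which all its peaks lay. It had 15, 17 and 16 peaks in replicates 1, 2 and 3, with summed read numbers of 305, 308 and 314. The mean sum of 309 ± 4.58 (SD, n = 3) ranked 15th of 6566 nuclear gene IDs, and 14 gene IDs in all, SERBP1 among them, held 8 or more regions in all 3 replicates. The replicates differed little in either measure. The peaks covered on average 4.76% of the gene interval and were spread over 94.4% of it.

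The highest place in SERBP1 lay towards the 3' end. The region from 67412224 to 67412387, with its centre 4495 bp before the 3' end of the gene, had highest read numbers of 37, 41 and 54. All 3 replicates covered the same 130 of its 164 nt. Each peak also has a marked stretch inside it, mostly of 4 nt, and the marked stretches of the 3 replicates began within 15 nt of each other. A neighbouring region from 67412090 to 67412178 had 21, 15 and 18. Of the regions found in all 3 replicates, the one nearest to the 3' end, from 67409342 to 67409472, lay 1597 bp before that end and had 22, 20 and 29. In each of these the 3 replicates were within 1.5-fold of each other.

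Between these and the 5' end, SERBP1 held 5 more regions in all 3 replicates. The region from 67415167 to 67415285, at 67.2% of the way along the gene, had 27, 24 and 22, and that from 67413166 to 67413260, at 76.1%, had 16, 17 and 20. Close to the 5' end, the region from 67426168 to 67426284, at 18.5%, had 24, 26 and 28, and 102 of its 117 nt were covered in every replicate. These are as even over the replicates as the highest region. The other 2 were looser. The region from 67420032 to 67420186 had 28, 21 and 12, with only 4 nt covered in all 3 replicates and marked stretches up to 93 nt apart. The region from 67425083 to 67425119 had 11, 9 and 15, with 2 nt in common. With an overlap of 50% of both peaks required, SERBP1 held 6 regions in place of 8.

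SERBP1 had 7 further regions in exactly 2 replicates and 8 in 1. Of those in 2 replicates, the one nearest to the 5' end, from 67429988 to 67430088, had read numbers of 21 and 25 in replicates 1 and 2 and no peak in replicate 3. Its height was that of regions found in all 3. Nearer still, 102 bp into the gene, a peak of replicate 2 alone had a read number of 16. Towards the 3' end, the region from 67409144 to 67409237 had 17 and 16 in replicates 1 and 3, and a peak of replicate 1 alone, 1210 bp before that end, had 10. The outermost peaks of SERBP1 at both ends were thus found in 1 replicate each. The region from 67424200 to 67424238 had 21 and 10 in replicates 1 and 3 and no peak in replicate 2. The longest stretch of SERBP1 without a peak ran for 4746 nt, from 67415286 to 67420031, between the regions at 67.2% and 45.6%.

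The lists hold no weak peak for SERBP1. Its lowest read numbers were 10, 9 and 10 and its largest deposited p-values 6.88e-07, 4.03e-07 and 3.80e-08, although the lists reach down to a read number of 3 and up to p-values of 0.0437, 0.0435 and 0.0432. CNBP had lowest read numbers of 8, 9 and 6, and G3BP1 of 6, 3 and 6. FXR1 had 3 in each replicate and FMR1 had 3, 3 and 4. Over gene IDs with a peak in each replicate, the median lowest read number was 3 where the mean sum was below 100, 5 from 100 to below 300, and 19 from 300 up. The lowest peak listed thus differed between genes, so the peaks of a high and a low gene are not counted from the same height.

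**Figure D3:**
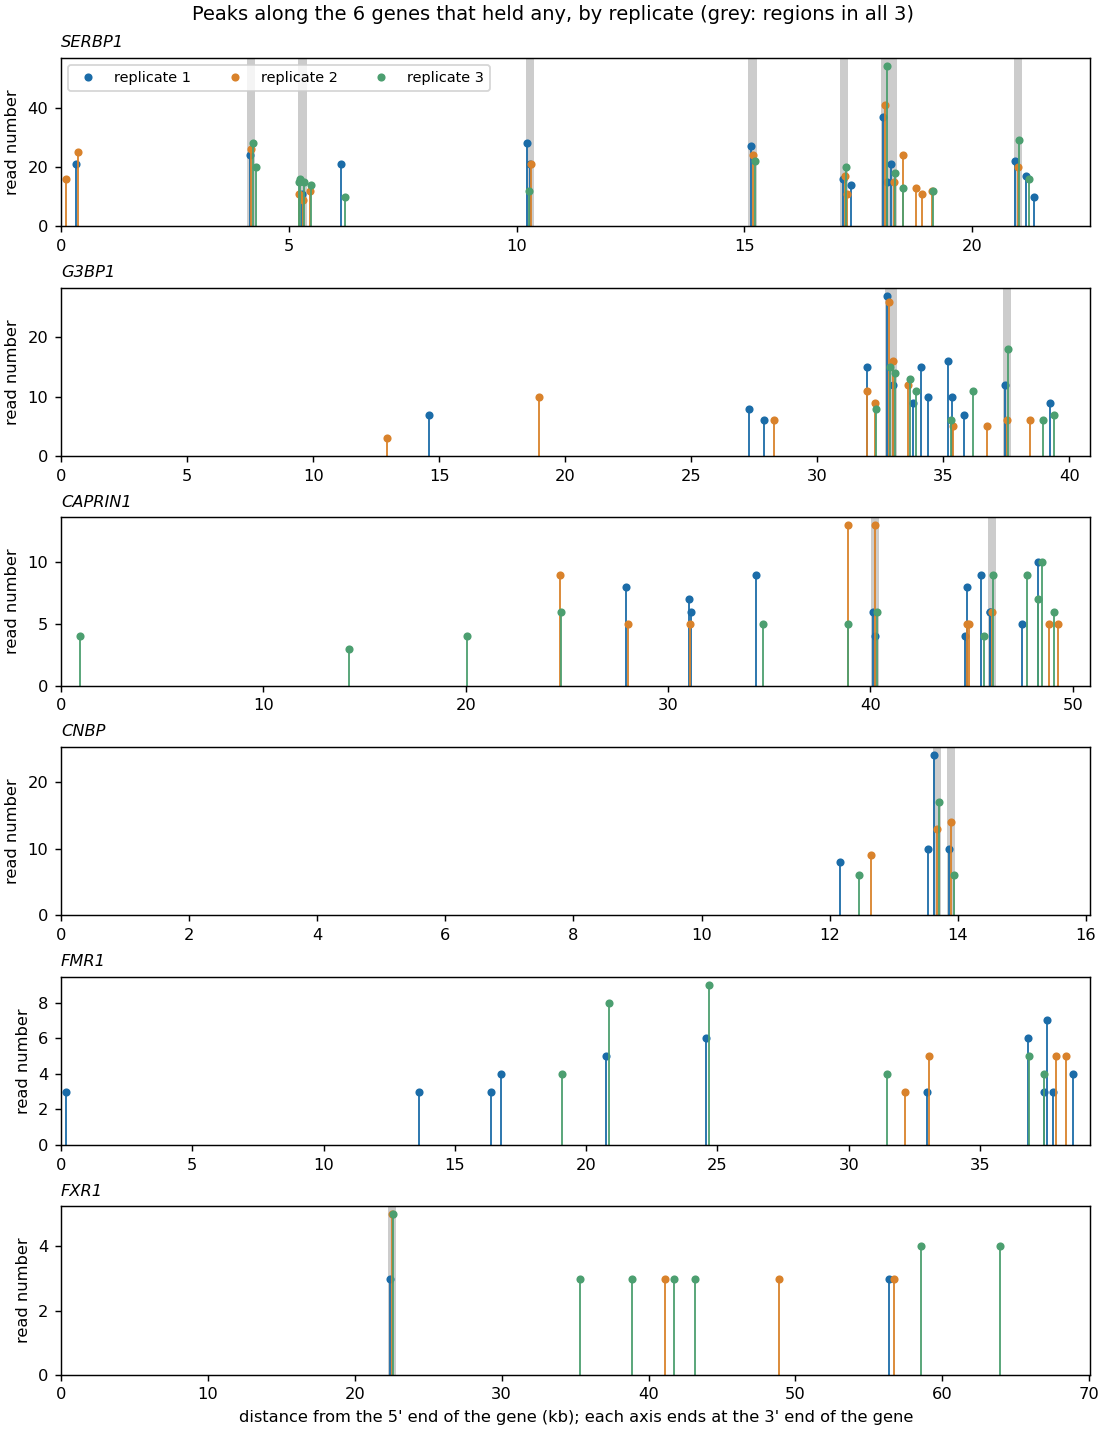
Read number of each peak (vertical axis) against its distance from the 5' end of the gene in kb (horizontal axis) for the 6 genes with a peak, 1 colour per replicate, with points of different replicates moved slightly apart and grey bands of fixed width at regions found in all 3. Peaks of SERBP1 run along 94.4% of the gene, while all 10 peaks of CNBP lie within 1766 of 16070 nt.

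In replicates 1 and 2 the highest peak of G3BP1 lay near 80.4% of the way along the gene, and in replicate 3 at 91.9%. It lies on the plus strand of chromosome 5 from 151771954 to 151812785, spans 40832 bp, and had 14, 12 and 10 peaks with summed read numbers of 163, 115 and 109. The highest region, from 151804718 to 151804882, at 80.4%, had 27, 26 and 15. Its marked stretches began within 3 nt of each other, the closest placing of all 16 regions. The next region, from 151804883 to 151805031, touches it end to end and had 12, 16 and 14. A further region, from 151809402 to 151809525, lay 3321 bp before the 3' end and had 12, 6 and 18. The 3 replicates thus spread over 3-fold there, the widest spread among the 16. With touching peaks joined G3BP1 held 2 regions, and with an overlap of 50% of both peaks 1.

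Most of the read number of G3BP1 lay in the 3' 50% of the gene, with 95.7%, 88.7% and 100% in replicates 1, 2 and 3. The first 12913 nt of the gene held no peak. Another 7 regions were found in exactly 2 replicates, among them that from 151803910 to 151804054 with 15 and 11 in replicates 1 and 2, and 13 were found in 1.

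CAPRIN1 held many low peaks, few of which recurred. It lies on the plus strand of chromosome 11 from 34051731 to 34102610, spans 50880 bp, and had 13, 10 and 13 peaks with summed read numbers of 88, 71 and 78. Its highest read numbers were 10, 13 and 10, and 32 of its 36 peaks had a read number of 9 or less. The region from 34091906 to 34092034, at 79.1%, had 6, 13 and 6. It counts as found in all 3 replicates through the wide peak of replicate 2 alone, because the peaks of replicates 1 and 3 do not overlap and no base was covered in all 3. The region from 34097698 to 34097761, at 90.4%, had 6, 6 and 9, with 26 nt in common. With an overlap of 50% of both peaks required, CAPRIN1 held 1 region. A further 6 regions were found in exactly 2 replicates and 17 in 1. The one from 34100043 to 34100161, 2508 bp before the 3' end, had 10 in both replicate 1 and replicate 3.

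CNBP was the most compact of the genes. Transcribed from the minus strand, it occupies 129167827 to 129183896 of chromosome 3, spans 16070 bp, and had 4, 3 and 3 peaks with summed read numbers of 52, 36 and 29. All 10 peaks lay within 1766 nt, from 129169960 to 129171725, and the 12171 nt between that stretch and the 5' end held none. The region from 129170153 to 129170294, at 85.1%, had 24, 13 and 17, with 74 nt in common. The region from 129169960 to 129170047, at 86.4%, had 10, 14 and 6. These 2 regions held 73.2% ± 7.13 of the read number of CNBP (SD, n = 3). The share for SERBP1 was 64.0% ± 8.35. It was above that of CNBP in replicate 1, with 72.8% for SERBP1 against 65.4% for CNBP. In replicates 2 and 3 it was below, with 56.2% and 63.1% against 75.0% and 79.3%. With an overlap of 50% of both peaks required, CNBP held 1 region.

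Peaks in the FMRP family were low. FMR1 lies on the plus strand of the X chromosome from 147911919 to 147951125, spans 39207 bp, and had 12, 4 and 6 peaks with summed read numbers of 50, 18 and 34. Its highest read numbers were 7, 5 and 9, and none of its 19 regions was found in all 3 replicates. The 3 found in exactly 2 included those from 147932714 to 147932767, with 5 and 8, and from 147936501 to 147936579, with 6 and 9, both in replicates 1 and 3. The last of them, from 147944922 to 147945044, had 3 and 5 in replicates 1 and 2. Replicate 2, which had the fewest peaks of FMR1, lacked the 2 higher ones. Without replicate 2, FMR1 held 2 regions found in both remaining lists, and without replicate 3 it held 1. The final 10% of the gene held 46.0%, 55.6% and 26.5% of the read number of FMR1 in peaks of 1 replicate each. A single peak lay near the 5' end, 262 bp into the gene, with a read number of 3 in replicate 1.

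FXR1 lies on the plus strand of chromosome 3 from 180912670 to 180982753, spans 70084 bp, and had 2, 4 and 7 peaks with summed read numbers of 6, 14 and 25. Its only recurring region, from 180935138 to 180935236, had 3, 5 and 5. Although low, the place was the same in all lists: 58 of its 99 nt were covered in every replicate, and the marked stretches began within 6 nt of each other. At 32.1% of the way along the gene, it was the peak of FXR1 nearest to the 5' end. The other 10 regions had read numbers of 3 or 4 and 1 replicate each. When each list was limited to the 50% of peaks with the lowest p-values, or with a read number of 5 or more required, FXR1 held no region. The gene FXR2 had no peak to set beside these, and since the lists start at a read number of 3, lower read numbers there are not detectable.

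**Figure D4:**
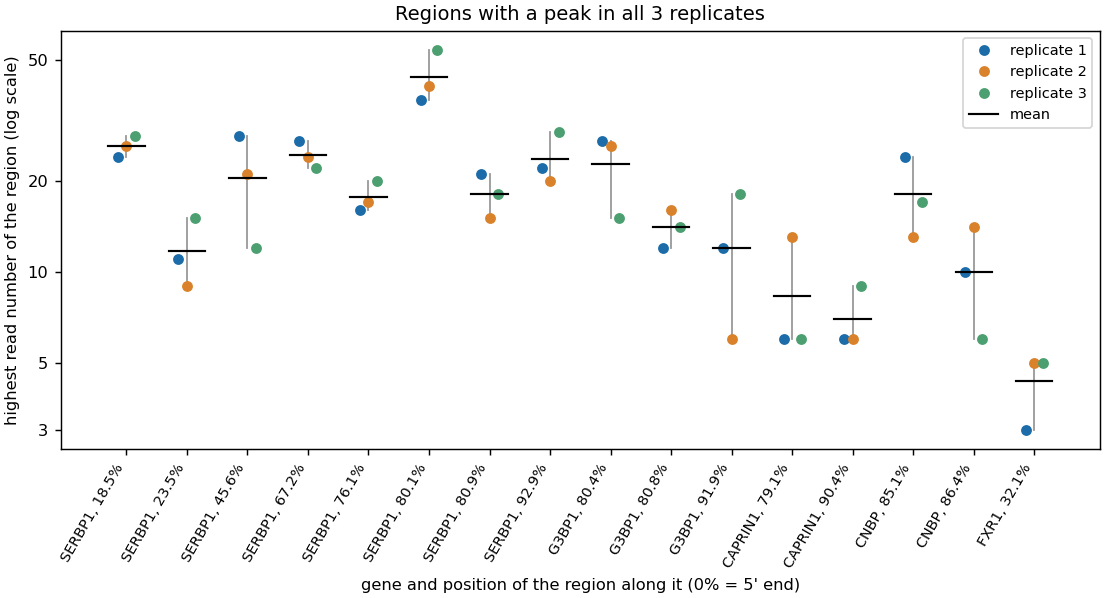
Highest read number (vertical axis, log scale) of each of the 16 regions found in all 3 replicates, labelled by gene and by position along it from 0% at the 5' end, with 1 point per replicate, a bar at the mean and a grey line over the range. Of the 16 regions, 12 have replicates within 2-fold, and the SERBP1 region at 80.1% stands highest.

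The heights of the 16 regions varied between replicates about as much as those of other genes. The median ratio of the highest to the lowest replicate was 1.58, against 1.67 over all 2466 regions found in all 3 replicates, and 75.0% of the 16 were within 2-fold, against 76.5%. Their median width was 121.5 nt against 116 nt, and their marked stretches lay a median of 24.5 nt apart against 22 nt. They were higher, with a median of the mean highest read number of 17.8 against 8.33. These are descriptions without a test.

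Peaks of the 7 genes lay in regions found in all 3 replicates more often than peaks in general. The gap was smaller or turned round among peaks of like read number. The share was 30.9% ± 1.59, against 15.9% ± 1.22 over all nuclear peaks (SD, n = 3). At read numbers of at least 20 it was 80.0% (20 of 25 peaks), against 88.1% of 1586. From 10 to 19 it was 37.3% (19 of 51), against 57.1% of 3773, and from 4 to 9 it was 15.5% (11 of 71), against 16.2% of 23044. At a read number of 3 it was 5.56% (1 of 18), against 3.40% of 22213. Of the 51 peaks from 10 to 19, SERBP1 supplied 25, of which 8 lay in such a region, and G3BP1 17, of which 6 did. SERBP1 had no listed peak below 10, 9 and 10 in replicates 1, 2 and 3, whereas the lists reach down to 3. A lower partner in another replicate was thus not listed for its peaks, so shares at 1 read number are not like for like. Peaks of 1 gene are not independent of each other, and the difference was not tested.

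The final 10% of the gene held less of the read number of these genes than of genes in general. The share was 18.1%, 10.3% and 22.1% in replicates 1, 2 and 3, against 31.3%, 32.2% and 31.6% over all nuclear peaks whose gene ID was tied to 1 RefSeq gene. It was lower in each replicate. By gene it averaged 42.7% ± 14.8 in FMR1, 35.3% ± 15.5 in CAPRIN1, 17.3% ± 9.77 in G3BP1, 12.3% ± 5.10 in SERBP1 and 5.33% ± 9.24 in FXR1 (SD, n = 3), and CNBP held none. Because SERBP1 held 51.3% ± 4.75 of the read number of the 7 genes (SD, n = 3), it weighs most in the pooled share. The centres of 3 of the 16 regions fell in that final 10%, 1 each in SERBP1, G3BP1 and CAPRIN1, which is 18.8%, against 38.2% of 2359 regions. In the 3' 50% of the gene the shares of regions were 75.0% and 76.0%. The share of read number there was higher than over all nuclear peaks tied to 1 gene in each replicate. It was 77.6%, 73.8% and 73.5% in replicates 1, 2 and 3, against 67.9%, 68.6% and 64.3%. The ends are those of the RefSeq interval, which takes in the longest transcripts, and no exon, intron or untranslated region was assigned. With the last 1000 bp as the 3' end, the 7 genes held 0.497% ± 0.454 of their read number there, against 13.4% ± 0.410 over all nuclear peaks tied to 1 gene (SD, n = 3), again lower in each replicate. The 7 genes span 16070 to 70084 bp, and the genes compared were not matched for length. A fixed 1000 bp is a larger part of a shorter gene. The difference was not tested.

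Peaks that began or ended at exactly the same base in different replicates were found in SERBP1 and CAPRIN1 and in no other of the 7 genes. Of 34 overlapping pairs of SERBP1 peaks from different replicates, 5 shared a border. Replicates 1 and 2 shared the borders at 67425083, 67426170 and 67429988, and replicates 1 and 3 that at 67424200, all on the side of the RNA's 3' end. Replicates 2 and 3 shared the border at 67412387, on the side of its 5' end. In CAPRIN1, 2 of 12 pairs did so, at 34082825 and 34091906 in replicates 1 and 2, both on the 5' side. Over all 7 genes this was 9.46% of 74 pairs, against 11.3% of 13383 pairs over all nuclear gene IDs. Exon borders were not used here, so the borders could not be set against them.

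Genes of related function ranged from no peak to 9 regions. Of 42 genes for stress-granule, FMRP-partner and messenger RNA-binding proteins, 16 held a region in all 3 replicates, 12 had a peak in each replicate without one, 10 had peaks in 1 or 2 replicates and 4 had none. Of the 38 with a peak, 42.1% held a region, against 21.4% of nuclear gene IDs with a peak. At like heights the shares were closer: among genes with a peak in each replicate and a mean sum from 30 to below 100 it was 84.6% of 13, against 83.2%, and from 10 to below 30 it was 37.5% of 8, against 41.5%. RACK1, a scaffold protein of the small ribosomal subunit, led with 9 regions and summed read numbers of 85, 81 and 103, in 7010 bp of gene. To RACK1 2 gene IDs were tied, and to each other gene with a region named here 1. Regions were joined per gene ID, so a place in RACK1 listed under both IDs may count more than once. Whether any did was not checked. IGF2BP1, which stabilises messenger RNAs, held 3 with 103, 118 and 87. DDX6, the helicase of P-bodies, held 3 with 122, 87 and 71, and PABPC1, the poly(A)-binding protein, held 2 with 105, 88 and 93. G3BP2, the paralog of G3BP1, held 1 region, with summed read numbers of 42, 48 and 40 that lay below those of G3BP1 in every replicate. ATXN2 had 3, 1 and 2 peaks and no region, and CAPRIN2 and HABP4, the paralogs of CAPRIN1 and SERBP1, had no peak.

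The gene IDs most like SERBP1 in peaks and summed read number over the 3 replicates, among 3098 named ones with a peak in each, were 2 that lie in HNRNPA1 and 1 in CBX5, a heterochromatin protein gene. Likeness was the Euclidean distance over 6 values on the log2(1 + value) scale, and was 0.43 and 0.63 for the HNRNPA1 IDs and 0.48 for CBX5. The HNRNPA1 IDs shared 34 identical peaks, so they are not separate genes with the same pattern. Their regions numbered 10 and 7, and CBX5 held 4, with summed read numbers of 243, 283 and 298. For G3BP1 the nearest were MATR3, a nuclear matrix protein gene, at 0.44 with 4 regions, EEF1A1, a translation elongation factor gene, at 0.59 with 7, and HAPSTR1 at 0.66 with 5. Peaks in MATR3 were listed under 3 gene IDs and those in HAPSTR1 under 2, with 10 and 16 identical peaks under 2 of the IDs. The values of MATR3 and HAPSTR1 are those of 1 ID each.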

How the data were processed

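The easyCLIP peak lists, 1 per replicate, were used as deposited. Per the submitters' processing notes the build was hg38 and the tools included bedtools and deepTools, with no version. For the aligner, the peak caller and its settings, and whether molecular identifiers were collapsed, the sources used here give nothing. The deposited p-values were all under 0.05 and no adjustment was stated. The read number is the last number of the name in each deposited line, and its meaning is inferred from the layout. Gene IDs were tied to genes of a RefSeq table (GRCh38.p14) that held at least 90% of the centres of their peaks on the gene's strand. This tied 6210 of 6566 nuclear gene IDs to 1 gene. Regions, positions and counts were computed in Python 3.11.15 with pandas 2.3.3 and numpy 2.4.6, per gene ID and strand, after the region finder was tested on simulated data. Lines with 1 interval under several gene IDs were counted once in the total nuclear read number of each replicate. In the shares of peaks, the regions and the peak pairs over all nuclear gene IDs, such lines were counted under each gene ID. A count was taken as unchanged within 1.5-fold. With 1 group there was no test between groups. The genes and lists were chosen with earlier results of these data known. The genes named followed a rule: the 7 genes, the 6 related genes with most regions, 4 partners or paralogs, and the 3 gene IDs most like SERBP1 and G3BP1. Of the related genes, 2 that the rule names are not reported here. Peak sequences and motifs were planned but not analysed here, since the lists give positions only.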

Additional observations from a re-analysis of the deposited data

How the results depend on the processing

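The summed number of peaks, the number of genes with a region (4 to 6 of 7) and the number of related genes with one (12 to 24 of 42) moved by at most 1.5-fold in all alternatives tried. Single genes moved more: the mean number of peaks of FMR1 was 4.00 and 3.33, in place of 7.33, for the 50% of peaks with the lowest p-values and with a read number of 5 or more, and that of FXR1 1.33 and 0.667, in place of 4.33. Counting any same-strand peak in the gene interval gave the same peaks as the gene IDs. The IDs had themselves been tied to genes by position, so these counts were not independent. The 16 regions became 10 when an overlap of 50% of both peaks was required and 39 when 2 or more replicates sufficed, and with 1 replicate left out, when 2 lists sufficed, 23 to 24. The share of peaks in such regions was then 18.3%, 58.8% and 43.5% to 43.9%. It was 33.3% for the 50% of peaks with the lowest p-values and 35.5% with a read number of 5 or more. The share of the nuclear read number held by the 7 genes moved from 0.582% to 0.741% and 0.812% under those last settings, which also remove low peaks from the total. The share of read number at the 3' end was 0.497% with the last 1000 bp in place of the final 10%. Other settings moved these shares by less than 1 SD. No paired analysis was possible because there is 1 group. FXR1 and FMR1 rest on read numbers of 3 to 9, and the part of depth in their recurrence was not tested.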

Other observations

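The index that numbers the peaks of a gene ID in the deposited names skipped 14 numbers in the 7 genes, beside 165 listed peaks. Of these, 8 fell in FXR1, 3 in FMR1, 2 in G3BP1 and 1 in CAPRIN1, and none was seen in SERBP1 or CNBP. Numbers missing after the last listed peak of a gene ID cannot be seen. All nuclear gene IDs together skipped 4834, beside 16178, 16000 and 18438 listed lines in replicates 1, 2 and 3.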
